A study of Mus musculus with 16 samples.

Results

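The comparison described here set the annulus fibrosus of mice at postnatal day 28 (P28) against the annulus fibrosus at postnatal day 5 (P5). Its members were chosen by age alone: the 4 P28 libraries and the 4 P5 libraries, 8 of the 16 libraries of a series that also holds P14 and P21. All libraries came from wild-type C57BL/6 mice with no engineered allele, and the labels name no treatment. Each library was a pool of tail discs from 2 to 3 mice of both sexes, with 10 discs taken per mouse, so a library is a small pool and not a single animal. The annulus was separated by hand from the nucleus pulposus and the cartilage endplate, and total RNA depleted of rRNA was sequenced in 150-base paired reads. Within P5, replicate 4 had a lower share of the predicted gene Gm26917 than the other 3 libraries, and the calls were therefore also examined against P5 replicate 4 alone.

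The annulus fibrosus is the ring of lamellar fibrocartilage that encloses the gelatinous nucleus pulposus of the intervertebral disc. Its outer lamellae are rich in type I collagen and resemble tendon, its inner part holds type II collagen and aggrecan, and it borders the cartilage endplate and the bone of the vertebra. In the first weeks after birth the disc passes from rapid growth to slower growth, and the tissue takes on the load of an active animal.

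The values are reads per gene divided by a library size factor, called normalised read counts below. The P5 libraries held 11153528 to 20179991 reads and the P28 libraries 20263292 to 24782845. P5 replicates 1, 2 and 3 gave 11.3%, 8.49% and 12.1% of their reads to Gm26917 and 20.2%, 12.3% and 11.5% to mitochondrial genes. P5 replicate 4 gave 4.30% and 3.16%, and the P28 libraries gave 1.71 to 2.32% and 2.00 to 3.53%. P5 replicate 4 was also the deepest P5 library, and Col2a1, the type II collagen gene, took 12.9% of its reads against 4.22 to 5.48% in the other P5 libraries. Tissue markers were present in all 8 libraries: Mkx, a tendon and annulus transcription factor, stood at 2010.5, 2299, 1343 and 1801 normalised read counts at P5 and at 2375, 1887, 2724 and 2039.9 at P28 (each list in the order of replicates 1 to 4, as throughout). Tnmd, a tendon membrane protein, stood at 1175, 1543, 1852 and 2271 at P5 and at 5639.9, 2563, 10143 and 2899 at P28. Nothing in the labels says whether discs from the same mice entered more than one library, and p-values measure the spread between these pools.

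Of 17577 genes tested, 4897 (27.9%) passed the test: 2641 (15%) were higher and 2256 (12.8%) were lower at P28. The test was limma on log2(normalised read count + 1), in which all 4 ages shared 1 estimate of the spread, with Benjamini-Hochberg adjustment over all genes tested and a threshold of 0.05. Changes below are P28 minus P5 on that scale, as the estimate ± its standard error with 4 pools per age, and "rose" or "fell" is used only for genes that passed. The direction of small changes depended on the scaling: with each library brought to the same total, the median change of all genes was -0.21 instead of -0.01, and 32.8% of the called genes were higher instead of 53.9%. With no reference to a test, all 4 P28 libraries lay above all 4 P5 libraries in 15.1% of genes and below them in 14.4%.

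The called genes were chosen on a P5 mean that includes replicate 4, and both comparisons share the P28 libraries, so their values against replicate 4 are a description. Against replicate 4 alone, 2608 of the 2641 higher genes and 2227 of the 2256 lower genes kept their sign. The other 33 and 29 had the opposite sign, and limma called 0 of these in the opposite direction against replicate 4, 0 also at an unadjusted p under 0.05. The median change of the higher genes was 0.78 against replicate 4 and 1.03 against replicates 1 to 3, and that of the lower genes was -0.93 and -1.27. Replicate 4 lay below all 4 P28 libraries in 2332 of the higher genes (88.3%) and above them all in 1980 of the lower genes (87.8%). In a fit limited to the 11 libraries under 6% Gm26917, where replicate 4 is the only P5 library and is assumed to vary like the other ages, 747 of the higher genes (28.3%) and 372 of the lower genes (16.5%) passed again, which is 4.25% and 2.12% of all genes tested. Of the genes that changed by more than 2 on the log2 scale, 280 of the 374 that rose and 164 of the 490 that fell passed again. P28 replicate 1 moved the count, since 739 genes passed both tests without P28 replicate 1 against 1119 with it. In a further fit over all 16 libraries that took the Gm26917 share, in log2, as a covariate, a share that is itself lower at P28, 377 of the higher and 239 of the lower genes passed. Genes that passed against all P5 libraries and against replicate 4 alone are said below to hold against replicate 4. A named gene said to rise or fall holds against it unless stated otherwise. Counts of list members that rose or fell are over all 4 P5 libraries, and a counted member need not hold. Beside these counts stand the shares over all genes tested, 15% higher and 12.8% lower.

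**Figure D1:**
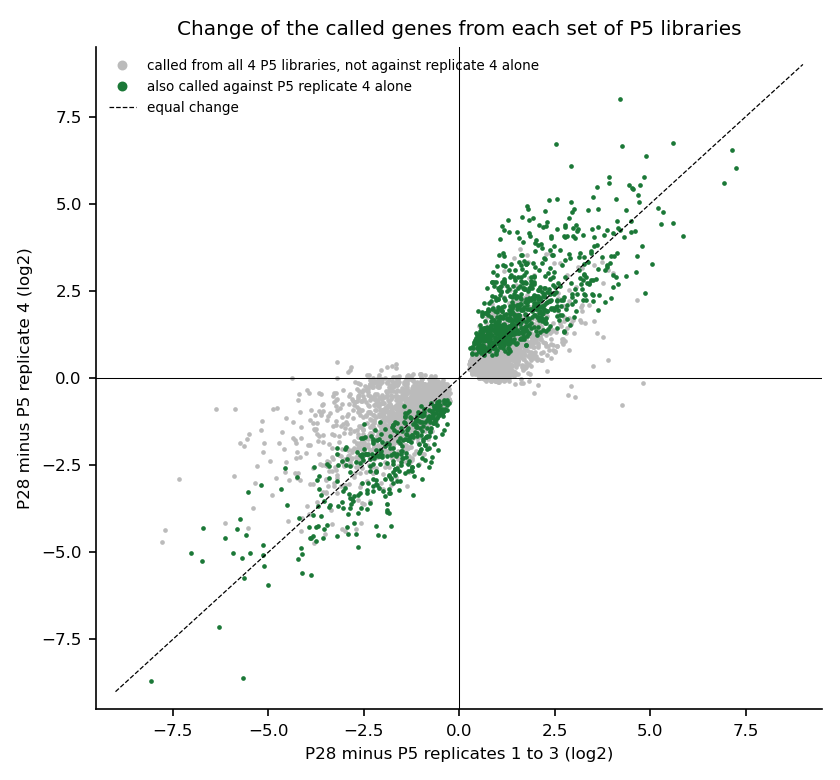
Each point is 1 of the 4897 called genes; the x axis is the P28 mean minus the mean of P5 replicates 1 to 3 and the y axis is the P28 mean minus P5 replicate 4, both in log2, with the dashed line marking equal change. The 1119 genes that also passed against replicate 4 (green) include 614 of the 1277 genes that rose and 290 of the 1370 that fell by more than 1 on the log2 scale.

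At the intermediate ages, the median higher gene had covered 56.9% of its P5 to P28 change by P14 and 78.8% by P21, and the median lower gene 53.5% and 81.0%. The 4 age means followed one another in order in 1348 of the higher genes (51.0%) and 1161 of the lower genes (51.5%). P14 replicates 3 and 4 gave 9.05% and 8.05% of their reads to Gm26917, above 6% as in P5 replicates 1 to 3. P14 replicates 1 and 2 gave 3.91% and 2.43%, and all P21 and P28 libraries were under 6%. The P14 means thus mix libraries above and below 6%. The effect of this mix on the change covered by P14 and on the order of the means was not tested.

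The genes with the largest increase included several that encode secreted or membrane proteins. Tnr, which encodes tenascin-R (chr1:159523769-159931729, GRCm38), stood at 14.6, 4.55, 9.72 and 13.6 normalised read counts at P5 and at 784, 1490.3, 1607 and 1863 at P28, a change of 6.99 ± 0.35 (limma adjusted p = 3.53e-09). Its P14 and P21 means were 236 and 919, between those of P5 and P28. Grem1, a secreted BMP antagonist (chr2:113746164-113758646), went from 663, 605, 239 and 1147 to 65569.5, 39511, 70006 and 53677, a change of 6.60 ± 0.39 (limma adjusted p = 1.52e-08). Every P28 library exceeded every P5 library in both genes, and replicate 4 was the highest P5 library for Grem1 without coming near the P28 values. Timp4, an inhibitor of matrix metalloproteinases, rose from 11.7, 4.55, 20.8 and 5.09 to 233, 402, 291 and 176 (4.75 ± 0.49, limma adjusted p = 6.77e-06). Fam131c, a gene of little known function, rose from 11.7, 12.5, 8.33 and 22.0 to 333, 278, 489 and 229.7 (4.53 ± 0.26, limma adjusted p = 1.41e-08). Both held against replicate 4, with changes of 5.44 and 3.80 from it. S100a4, Fxyd3 and Lgi4 are also among the 15 largest increases, but 51.7%, 42.5% and 44.9% of their exonic bases are shared with other annotated genes, so their counts are uncertain.

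All 15 of these genes held against replicate 4, and 11 of the 15 largest decreases did. Col14a1, a fibril-associated collagen of growing tendon, stood at 6752, 12023, 9319 and 6624 at P5 and at 293, 150.3, 238 and 159.9 at P28, a change of -5.37 ± 0.31 (limma adjusted p = 1.5e-08). Klf14, a Krüppel-like transcription factor, fell from 226, 188, 236 and 231 to 13.6, 4.72, 0 and 3.28 (-5.66 ± 0.67, limma adjusted p = 2.2e-05). Replicate 4 was within the range of the other P5 libraries for Klf14 and just under it for Col14a1. Col6a6, a chain of type VI collagen, fell from 849, 1415, 1608 and 314 to 10.9, 9.44, 10.9 and 4.92 (-6.51 ± 0.52, limma adjusted p = 4.85e-07), and Pappa2, a protease that cleaves IGF-binding proteins, fell from 376, 286, 265 and 161 to 13.6, 4.72, 0 and 6.56 (-5.70 ± 0.83, limma adjusted p = 0.000138). In both, replicate 4 was the lowest P5 library. The 4 decreases that did not pass against replicate 4 were those of Myh8, Myh3, Lypd8 and Cpa3, and in each of them replicate 4 was again the lowest P5 library.

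**Figure D2:**
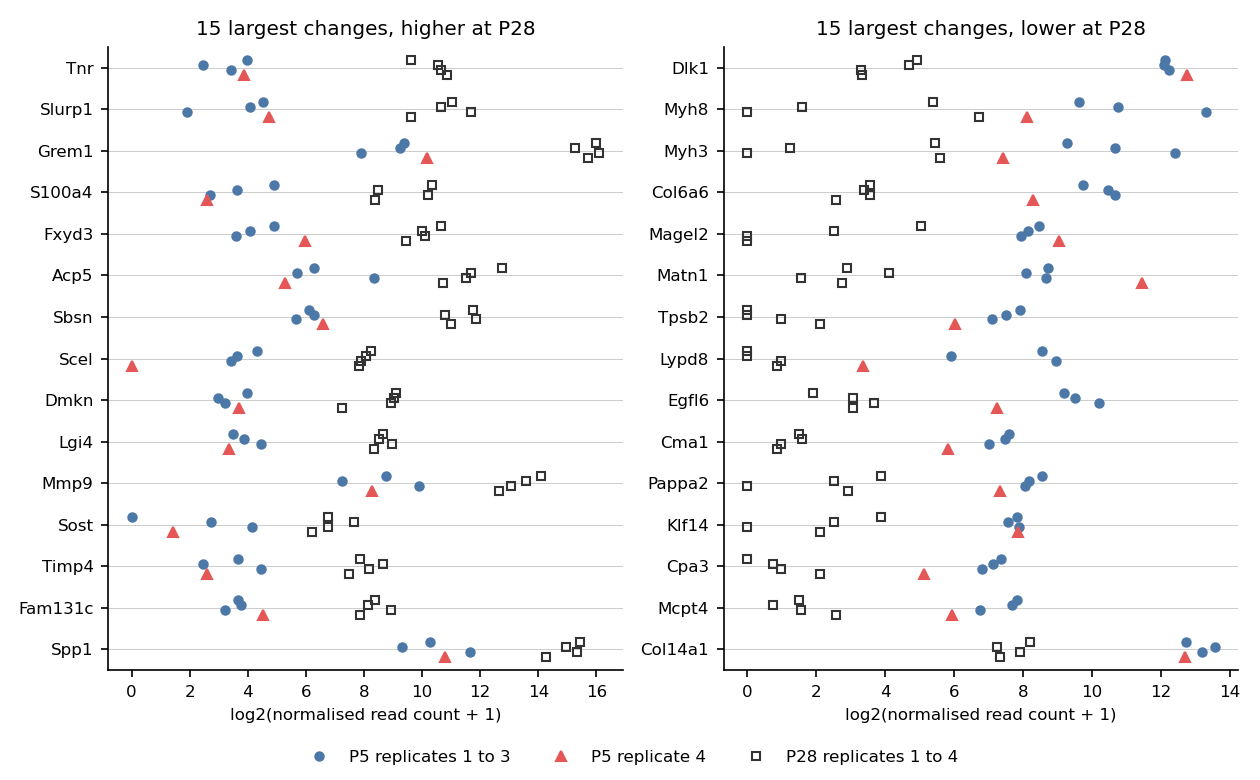
Normalised read counts on the log2(value + 1) scale in each P5 library (blue circles, red triangle for replicate 4) and P28 library (open squares) for the 15 called genes that rose most and the 15 that fell most. The ages do not overlap in any of these genes, which the choice of genes required; for Myh8, Myh3 and Lypd8 the P5 libraries span a wide range with replicate 4 at its low end.

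Imprinted genes are expressed from one parental copy and include many regulators of fetal and early postnatal growth. Of 38 imprinted genes tested, 26 fell and 4 rose, with a median change of -2.04 against -0.01 over all genes tested. All 4 P28 libraries lay below all 4 P5 libraries in 26 of the 38, and in 14.4% of all genes tested. All 26 also fell against replicate 4 alone, in every fit that left out 1 of the 8 libraries, and 23 of them in a fit with the Gm26917 share as a covariate. Dlk1, a transmembrane ligand related to Notch ligands (chr12:109452823-109463336), stood at 4376, 4314, 4793 and 6862 at P5 and at 29.1, 24.9, 8.88 and 9.02 at P28, a change of -8.23 ± 0.35 (limma adjusted p = 1.29e-09). Replicate 4 had the highest Dlk1 level of all 8 libraries. The P14 and P21 means of Dlk1 were 526 and 139.9. Magel2, a regulator of ubiquitin ligases in the Prader-Willi region, was at 352, 283, 244 and 526 at P5 and at 31.8, 4.72, 0 and 0 at P28 (-6.51 ± 0.98, limma adjusted p = 0.000183), with no read in 2 P28 libraries.

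The fall ran through both maternally and paternally expressed genes of several clusters. In the Dlk1 cluster of chromosome 12, the noncoding RNAs made from the maternal copy fell less than Dlk1: Meg3 went from 36162, 43596, 58917 and 28502 to 3232, 5019, 4929 and 7986 (-3.004 ± 0.36), Rian from 17789, 21849.5, 20820.2 and 17274 to 3350.5, 2711, 4396 and 5360.0 (-2.34 ± 0.22) and Mirg changed by -2.63 ± 0.29. The paternally expressed Rtl1, a retrotransposon-derived gene, went from 2417, 2921, 4316 and 1703 to 209, 236, 343 and 439 (-3.19 ± 0.41). Meg3 and Rtl1 differed from Dlk1 in that replicate 4 was the lowest P5 library for them and the highest for Dlk1. Cdkn1c, an inhibitor of the cell cycle, fell from 7415, 5837, 5141 and 10417 to 595, 679, 286 and 618 (-3.74 ± 0.34). Its neighbour Kcnq1ot1 fell from 11676, 12809, 11787 and 15419 to 2458, 3915, 2569.7 and 4443 (-1.99 ± 0.27). Cdkn1c shares 30.7% of its exonic bases with another annotated gene. Plagl1, a zinc-finger transcription factor, fell from 27464, 26662, 20722 and 34975 to 3217, 2424, 2804 and 3542 (-3.19 ± 0.17). Peg3, a zinc-finger protein, fell by less, from 30733, 30263, 23851 and 53638 to 7094, 10428, 4988 and 10008 (-2.08 ± 0.27), and its neighbour Zim1 fell from 5022, 4454, 3499 and 6862 to 449, 936, 231 and 727 (-3.22 ± 0.38). The smallest falls were those of Igf2r, the receptor that clears IGF2 (-1.05 ± 0.18), and of Gnas, a G-protein subunit (-0.99 ± 0.15).

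The 4 imprinted genes that rose changed by 0.49 to 1.07. Cd81, a tetraspanin, went from 3333, 3689, 3263 and 5014 to 9293, 6492, 10615 and 6033 (1.07 ± 0.23), and Peg13 from 298, 207, 172 and 153 to 426, 382, 406 and 303 (0.90 ± 0.20). Impact and Zrsr1 changed by 0.49 ± 0.14 and 0.51 ± 0.14, and the call of Impact ended without P28 replicate 3 or P5 replicate 3 (highest limma adjusted p = 0.0552). Peg13 was the only one of the 4 to hold against replicate 4. With each library brought to the same total, 2 of the 4 passed. Genes named here from the lists beyond the few with the largest changes were chosen after their values were seen.

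**Figure D3:**
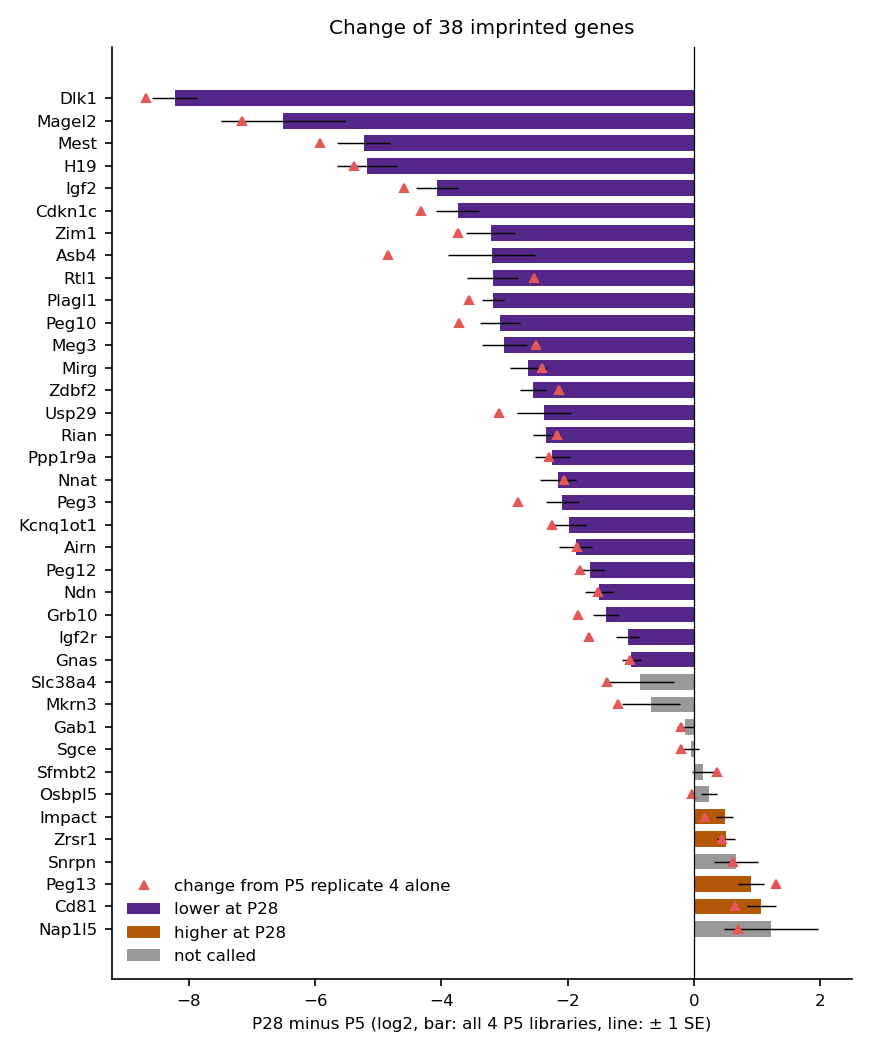
Change of the 38 imprinted genes tested, as P28 minus P5 in log2 with 1 standard error (bars and lines; purple lower, orange higher, grey not called) and as P28 minus P5 replicate 4 (triangles). The triangles of the 26 genes that fell all lie below 0, from -8.69 for Dlk1 to -1.02 for Gnas.

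The let-7 axis is a timing system in which the RNA-binding LIN28 proteins block the let-7 microRNAs and let-7 in turn lowers growth-related transcripts. Of 16 members tested 9 fell and 7 did not pass, with a median change of -0.80, and 9 or 10 fell without each of the 8 libraries in turn. Hmga2, a chromatin protein of growing mesenchyme and a let-7 target, stood at 244, 247, 182 and 181 at P5 and at 40.9, 54.6, 36.5 and 28.7 at P28 (-2.40 ± 0.32, limma adjusted p = 6.08e-05). Plag1, a transcription factor that acts on Igf2, fell from 514, 584, 508 and 406 to 122, 148, 67.1 and 121 (-2.17 ± 0.26, limma adjusted p = 2.51e-05). The P5 libraries lay close together in both genes and replicate 4 was the lowest of them. The IGF2 mRNA-binding proteins fell by unequal amounts: Igf2bp1 changed by -2.12 ± 0.59, Igf2bp2 by -1.41 ± 0.15 and Igf2bp3 by -1.06 ± 0.14. Igf2bp1 stood at 105, 86.5, 144 and 25.4 at P5 and at 11.8, 19.5, 14.8 and 22.97 at P28, and its change from replicate 4 was -0.57 and did not pass (limma adjusted p = 0.665). Hmga2, Plag1, Igf2bp2, Igf2bp3 and Prtg, a membrane protein of the embryo, made up the 5 members that held against replicate 4.

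Replication-dependent histone genes, which are transcribed in S phase, fell together: 28 of 39 tested were lower, 11 did not pass, and the median change was -1.56. Hist1h1d, a linker histone, stood at 2211, 1934, 1862 and 1204 at P5 and at 338, 469.8, 246 and 471 at P28 (-2.25 ± 0.35, limma adjusted p = 0.000259). Hist1h3g, a core histone, fell from 411, 405, 303 and 301 to 49.1, 111, 40.4 and 88.6 (-2.38 ± 0.47, limma adjusted p = 0.00143). Every P5 library exceeded every P28 library in 32 of the 39, replicate 4 included, and in 14.4% of all genes tested. Against replicate 4 alone the median change was -1.33, and limma called 0 of the 28, with 13 at an unadjusted p under 0.05. The core histone genes share near-identical coding sequence, and how reads were divided among the copies is not given in the sources used here.

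Circadian clock genes form a feedback loop in which the activators CLOCK and ARNTL drive the Per and Cry repressors and the Nr1d1 and Nr1d2 repressors, and the PAR bZIP factors Dbp, Tef and Hlf carry the rhythm to output genes. Of 20 clock and PAR bZIP genes 12 rose and 8 did not pass, with a median change of 1.05, and 6 of the 12 held against replicate 4, namely Dbp, Nr1d1, Nr1d2, Bhlhe41, Tef and Hlf. Without each of the 8 libraries in turn 11 or 12 rose, and 1 fell without P28 replicate 1, P28 replicate 2 or P5 replicate 4. Dbp stood at 133, 69.4, 101.3 and 122 at P5 and at 468, 991, 1471 and 1231 at P28 (3.20 ± 0.29, limma adjusted p = 1.43e-06), and Nr1d1 rose from 482, 491, 576 and 634 to 2688, 5081, 6666 and 4939 (3.08 ± 0.24, limma adjusted p = 4.38e-07). P28 replicate 1 was the lowest P28 library and replicate 3 the highest in both. Dbp shares 18.01% of its exonic bases with another annotated gene. Nr1d2, the paralog of Nr1d1, rose from 757, 733, 730.3 and 704 to 1675, 1679, 2454 and 2246 (1.44 ± 0.18, limma adjusted p = 4.21e-05), and its 4 P5 values were nearly equal.

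The Per genes and the E-box repressors rose by less. Per1 stood at 685, 822, 966 and 910.5 at P5 and at 2536, 2568, 4905 and 1526 at P28 (1.65 ± 0.38, limma adjusted p = 0.00415), and Per3 rose from 906, 1007, 1007 and 1012 to 1715, 2370.5, 2491 and 2948 (1.25 ± 0.23, limma adjusted p = 0.000802). Per2 had overlapping values, 523 to 771 at P5 and 691 to 1445 at P28, and did not pass (0.65 ± 0.33, limma adjusted p = 0.152). Bhlhe40 and Bhlhe41, repressors that bind E-boxes, rose by 1.29 ± 0.17 and 1.99 ± 0.23, and Ciart, a further repressor of the CLOCK complex, rose from 54.1, 75.1, 52.8 and 60.2 to 105, 144, 270.3 and 131 (1.33 ± 0.32). Tef rose from 982, 901, 998 and 1077 to 1809, 2301, 2637 and 2302 (1.18 ± 0.14) and Hlf by 0.92 ± 0.19. Rora, an activator that competes with the Nr1d repressors, rose from 1389.5, 1562, 1387 and 1718 to 4139, 2848, 6541 and 3590.0 (1.43 ± 0.27).

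The activators themselves did not pass the test. Clock stood at 1433 to 1496 at P5 and 1436 to 1777 at P28 (0.08 ± 0.10, limma adjusted p = 0.541), and Arntl at 324 to 469 and 180.4 to 392 (-0.57 ± 0.24, limma adjusted p = 0.0848). Cry1, Cry2, Npas2, Nfil3 and Usp2 also did not pass, with changes from -0.82 for Npas2 to 0.72 for Cry2. The hour at which tissue was taken is not given in the sources used here, so age and hour of collection cannot be told apart for these rhythmic genes.

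**Figure D4:**
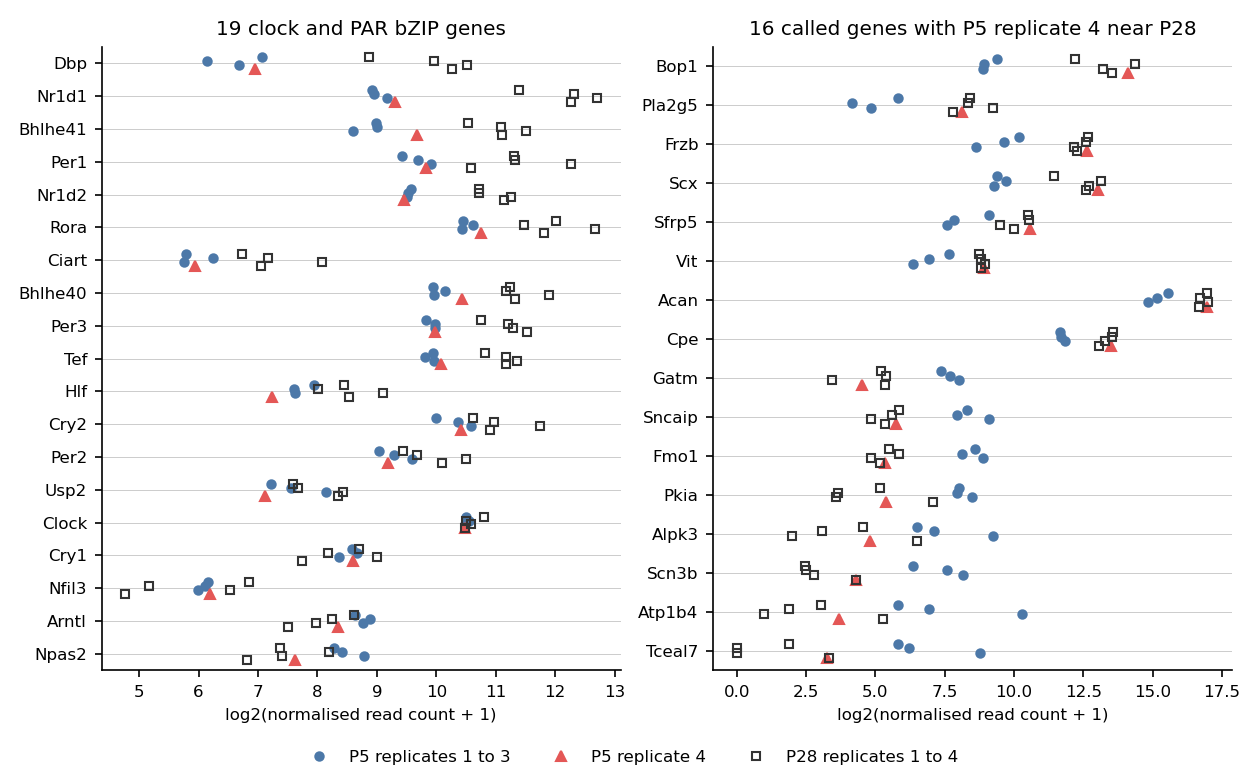
Normalised read counts on the log2(value + 1) scale per library (symbols as labelled) for 19 of the 20 clock and PAR bZIP genes (left) and for 16 called genes in which P5 replicate 4 lies near P28 (right). On the left replicate 4 sits with the other P5 libraries for Dbp, Nr1d1 and Nr1d2; on the right it sits apart from them, within or next to the P28 values.

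Promoters of these genes show which of them carry the letters read by the loop's own factors. In the 250 bases before the annotated start, searched on both strands in the RefSeq promoters of GRCm38.p6, the E-box CACGTG was present in 5 of the 17 clock genes matched, 4 of them among the 10 matched genes that rose, and in 1854 of all 27025 genes with a promoter (6.02% of 32851 promoters, some genes having several). The D-box TTATGTAA, read by the PAR bZIP factors, was present in 1 of the 17 and in 264 of all 27025 genes (0.819% of promoters). The sequences below are those of 3 genes that rose and hold an E-box and of Per3, which holds the D-box, written 5′ to 3′ on the gene's strand with each match in capitals. Ciart (minus strand, chr3:95882229-95882478) has E-boxes starting 116, 58 and 44 bases before the start, Per1 (plus strand, chr11:69098699-69098948) has 1 at 166, Bhlhe41 (minus strand, chr6:145865421-145865670) has 1 at 153, and Per3 (minus strand, chr4:151044666-151044915) has D-boxes at 205 and 158.
Ciart: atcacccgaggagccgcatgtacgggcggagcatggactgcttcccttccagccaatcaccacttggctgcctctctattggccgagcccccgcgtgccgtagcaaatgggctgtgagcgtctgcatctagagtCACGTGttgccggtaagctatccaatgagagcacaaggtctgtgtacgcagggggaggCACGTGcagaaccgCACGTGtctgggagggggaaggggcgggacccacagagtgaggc
Per1: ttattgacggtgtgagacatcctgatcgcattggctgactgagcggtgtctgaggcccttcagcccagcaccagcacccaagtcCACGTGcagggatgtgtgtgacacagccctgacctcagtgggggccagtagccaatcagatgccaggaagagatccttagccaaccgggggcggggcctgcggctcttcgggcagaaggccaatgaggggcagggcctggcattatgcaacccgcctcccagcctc
Bhlhe41: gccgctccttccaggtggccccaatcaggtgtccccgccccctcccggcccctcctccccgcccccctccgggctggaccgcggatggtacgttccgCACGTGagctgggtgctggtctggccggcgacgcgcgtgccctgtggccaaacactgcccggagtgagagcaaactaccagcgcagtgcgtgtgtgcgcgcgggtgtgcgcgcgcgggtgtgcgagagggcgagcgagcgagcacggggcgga
Per3: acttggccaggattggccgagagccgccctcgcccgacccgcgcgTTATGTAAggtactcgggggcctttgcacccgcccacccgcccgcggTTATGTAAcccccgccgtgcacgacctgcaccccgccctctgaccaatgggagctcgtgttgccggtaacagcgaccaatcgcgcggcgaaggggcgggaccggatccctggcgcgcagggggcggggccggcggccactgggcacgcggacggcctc
These are matches of letters within 1 window per start. Neither motif was found in this window of Dbp, Nr1d1 or Nr1d2, the genes of the list that rose by the largest amounts together with Bhlhe41 and Per1.

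Lysosomal proteases and subunits of the vacuolar proton pump, the enzyme that acidifies lysosomes and the bone surface under osteoclasts, rose as a group. Of 33 genes 27 rose and 6 did not pass, with a median change of 1.14, and 11 of the 27 held against replicate 4. Cst3, which encodes the cysteine protease inhibitor cystatin C, stood at 1229, 1152, 1188 and 3727 at P5 and at 20251, 18437, 21809.5 and 10102 at P28 (3.42 ± 0.39, limma adjusted p = 1.69e-05). Replicate 4 was above the other P5 libraries and below all P28 libraries. Ctsh, Lgmn and Lamp1, a cathepsin, the protease legumain and a lysosomal membrane protein, rose by 1.97 ± 0.20, 2.00 ± 0.31 and 1.54 ± 0.20 and held against replicate 4. Ctsb, the abundant cathepsin B, rose from 1731, 1709.8, 1765 and 2626 to 5669, 4279, 5989.7 and 3998 (1.35 ± 0.25), but did not hold (limma adjusted p = 0.185 against replicate 4). Atp6v0a4, a pump subunit best known in kidney, rose from 59.9, 46.6, 22.2 and 65.3 to 519.7, 415, 566 and 376 (3.33 ± 0.31, limma adjusted p = 2.25e-06), and Atp6v0d2, the subunit of osteoclasts, rose from 57.0, 23.9, 77.7 and 10.2 to 546, 316, 323 and 326 (3.45 ± 0.79, limma adjusted p = 0.00421).

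Markers of bone cells rose with them. Of 15 osteoclast markers 10 rose, all 10 against replicate 4 as well, and their summed level went from 4387 to 7495 across the P5 libraries to 16302 to 37496 across the P28 libraries. Replicate 4 had the lowest of the P5 sums. The median change of the osteoclast markers was 3.30 from replicate 4 and 1.92 from replicates 1 to 3. With the Gm26917 share as a covariate 2 of the 15 rose. Neutrophil and marrow markers moved with them, with 5 of 10 higher, 2 of them against replicate 4, and summed levels of 57.6 to 268 at P5 and 389 to 1867 at P28. That count was 1 without P28 replicate 2, 3 without P28 replicate 4 or P5 replicate 1, and 2 without P5 replicate 4. Mmp9, the gelatinase of osteoclasts, stood at 431, 149, 961 and 311 at P5 and at 17268, 12262, 8477 and 6419 at P28 (4.79 ± 0.85, limma adjusted p = 0.000657). Ocstamp, needed for osteoclast fusion, rose from 1.46, 2.28, 16.7 and 4.24 to 188, 102, 106 and 92.7 (4.497 ± 0.97, limma adjusted p = 0.00286), and no tested marker of the list was at 0 in a P28 library. Cathepsin K, shared by the lysosomal and osteoclast lists, rose from 326, 339, 849.7 and 281 to 5926, 2906, 3519.7 and 1999.7 (3.04 ± 0.53). Of 17 osteoblast and osteocyte markers 9 rose, 8 of them against replicate 4: Bglap, osteocalcin, went from 18.99, 11.4, 274 and 6.78 to 1390.0, 1855, 572 and 260.0 (4.87 ± 0.91), and its near-identical copy Bglap2 from 2.92, 7.96, 157 and 7.63 to 557, 689.5, 211 and 107 (4.37 ± 0.89), so the division of reads between them is uncertain. Ibsp, bone sialoprotein, rose from 640.0, 384, 2134 and 736 to 15969, 19474, 10427 and 9228 (4.06 ± 0.65), Spp1, osteopontin, by 4.504 ± 0.52, and Sost, an inhibitor of Wnt signalling made by osteocytes, from 0, 5.69, 16.7 and 1.70 to 106, 202, 107 and 73.8 (4.77 ± 1.03). P5 replicate 3 was the highest P5 library for Bglap, Bglap2, Ibsp, Spp1, Sost, Ctsk, Mmp9 and Ocstamp. Of 10 hypertrophic cartilage markers 5 rose, among them Mmp13, a collagenase, from 601, 226, 816 and 216 to 5672, 5641, 2716 and 3569.5 (3.41 ± 0.81). In these bulk pools more cells of a type and more RNA per cell cannot be told apart, and the part of bone, cartilage and marrow cells in the lysosomal genes was not tested.

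Nucleus pulposus and notochord markers were detected although that tissue was discarded at dissection. Of 14 markers 7 rose, and 1, Foxa2, fell, a call that was lost without P28 replicate 3, P28 replicate 4 or P5 replicate 4. Their summed levels overlapped, at 40015 to 151113 at P5 and 139118 to 166271 at P28. Replicate 4 had the highest P5 sum and lay within the P28 range. The median change was 1.296 over all P5 libraries and 0.71 from replicate 4, and 0 rose with the Gm26917 share as a covariate. T, the notochord transcription factor brachyury, stood at 259, 381, 149 and 633 at P5 and at 1485, 2508, 1404 and 2167 at P28 (2.56 ± 0.55, limma adjusted p = 0.00277), Krt8 rose from 126, 62.6, 86.1 and 136 to 477, 626, 598 and 461 (2.44 ± 0.45) and Krt19 by 2.18 ± 0.55, and all 3 held against replicate 4. Foxa1, another factor of the notochord, did not pass. Cd24a rose from 1011, 758, 640.0 and 2452 to 6250.4, 4707, 5109.8 and 4692 (2.30 ± 0.49), and its change from replicate 4 was 1.07 (limma adjusted p = 0.369).

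Genes of antigen presentation rose in 13 of 21 members and did not pass in 8, with a median change of 1.39. The class I genes H2-K1 and H2-D1, which encode the peptide-presenting heavy chains, rose from 130.0, 79.6, 178 and 142 to 599, 498, 640.2 and 404 (2.04 ± 0.24) and from 327, 242, 472 and 264 to 1277, 1032, 1240.0 and 835 (1.77 ± 0.22). Tapbp, tapasin, which loads peptides on class I molecules, stood at 468, 431, 537 and 590.0 at P5 and at 2753, 2129.9, 2288 and 1971 at P28 (2.17 ± 0.19, limma adjusted p = 1.36e-06), with 29.0% of its exonic bases shared with another gene. The nonclassical H2-T23 rose from 87.7, 97.8, 79.1 and 89.0 to 307, 422, 444 and 281 (2.00 ± 0.18). These 4 genes held against replicate 4 and their ages did not overlap. Nlrc5, the transactivator of class I genes, rose from 21.9, 25.03, 33.3 and 7.63 to 102, 195, 42.4 and 69.7 (2.11 ± 0.52, limma adjusted p = 0.00664). The class II genes Cd74 and H2-Ab1, expressed mainly by antigen-presenting cells, rose by 2.06 ± 0.37 and 2.27 ± 0.39 and did not pass against replicate 4. H2 genes are near-identical copies of one another, which leaves the division of reads among them uncertain. Beside them, macrophage markers summed to 606 to 2348 at P5 and 2183 to 3910 at P28, and lymphocyte markers to 60.2 to 133 and 123 to 634, and their part in the change was not tested. Of 15 macrophage markers 5 rose and 1 fell, 3 rose without P28 replicate 1, P28 replicate 2, P5 replicate 2 or P5 replicate 4, and 3 fell without P5 replicate 4.

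Of 20 complement genes tested 7 rose, 6 of them against replicate 4 as well, and 1, C1s1, fell, which did not hold. That fall was lost without P28 replicate 1, P28 replicate 3, P5 replicate 1 or P5 replicate 3, and 3 fell without P5 replicate 4. Clu, clusterin, an extracellular chaperone that inhibits the membrane attack complex, stood at 1026, 1359, 757 and 1696 at P5 and at 16372, 12115, 22349 and 9783 at P28 (3.64 ± 0.26, limma adjusted p = 2.17e-07). C3, the central component, rose from 43.8, 27.3, 24.99 and 7.63 to 87.2, 166, 161 and 106 (2.45 ± 0.46). Among cytokines, Il33, an alarmin held in the nucleus of stromal cells, rose from 20.5, 17.1, 47.2 and 17.0 to 194, 111, 472 and 145 (3.03 ± 0.43, limma adjusted p = 0.00012), and Tnfsf11, the osteoclast-inducing ligand RANKL, from 8.77, 3.41, 27.8 and 2.54 to 77.2, 64.7, 41.4 and 47.6 (2.81 ± 0.70, limma adjusted p = 0.00734). The cytokine list gave 7 rises among 26 genes, and 3 without P28 replicate 1 or P5 replicate 2. Its 1 fall, of Ccl27a, did not hold and was lost without P28 replicate 1, P28 replicate 3, P5 replicate 1 or P5 replicate 2.

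Matricellular proteins, which sit in the matrix and modulate cells without building fibres, divided evenly: 7 of 29 rose and 7 fell, with a median change of 0.07. Ccn5, a CCN family protein, stood at 95.0, 34.1, 52.8 and 57.6 at P5 and at 527, 421, 572 and 495 at P28 (3.14 ± 0.35), Cilp, an inhibitor of TGF-beta signalling in cartilage, at 329, 455, 1568 and 249 and 5248, 3646, 2794 and 1937 (2.69 ± 0.54), and Smoc1, a BMP modulator, at 571, 728, 612 and 877 and 5524, 2903, 5682 and 3295 (2.60 ± 0.22). These 3 and Tnr held against replicate 4. Postn, periostin, fell from 7373, 15678, 20020.5 and 3041 to 1166, 168, 308 and 278 (-4.67 ± 0.64, limma adjusted p = 8.57e-05), and Tnn, tenascin-W, from 299.5, 384, 2121 and 793 to 49.97, 50.6, 47.4 and 50.9 (-3.71 ± 0.44, limma adjusted p = 2.18e-05). Replicate 4 was the lowest P5 library for Postn but not for Tnn. Comp, cartilage oligomeric matrix protein, rose over all P5 libraries (1.09 ± 0.28) but not from replicate 4, which at 20849 lay within the P28 range of 16324 to 31879.

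Proteoglycan genes changed in their cores and their chain-building enzymes. Vcan, the large hyaluronan-binding proteoglycan versican, stood at 11591, 14867, 9771 and 10404 at P5 and at 168618, 70042, 161038 and 92014 at P28 (3.32 ± 0.29, limma adjusted p = 1.28e-06), with a P14 mean of 32273. In the list of ADAMTS proteases and hyaluronan turnover to which it belongs, Vcan and Adamts2, the procollagen N-proteinase (1.78 ± 0.20), were the only rises against 12 falls among 36 genes, and the falls numbered 7 without P5 replicate 2 or P5 replicate 3. Adamts19 fell from 126, 156, 168 and 45.8 to 6.36, 0.674, 0 and 4.10 (-5.31 ± 0.59, limma adjusted p = 1.23e-05), and Adamts3, another procollagen N-proteinase, from 1527, 1624, 1379 and 2622 to 512, 444, 528 and 673 (-1.70 ± 0.26). Of 44 glycosaminoglycan synthesis and sulfation genes 14 rose and 4 fell. Csgalnact2, which starts chondroitin chains, rose from 897, 887, 886 and 1369 to 4793, 4201, 5613 and 2783 (2.09 ± 0.25), Hs3st1, a heparan 3-O-sulfotransferase, from 43.8, 55.7, 81.9 and 50.9 to 395, 179, 469 and 253 (2.40 ± 0.30), and the sulfotransferases Chst1 and Chst7 by 1.10 ± 0.14 and 1.27 ± 0.23. These 4 enzymes held against replicate 4. Xylt1, which adds the first sugar to the core protein, rose over all P5 libraries (1.32 ± 0.28) with a change from replicate 4 of 0.22 (limma adjusted p = 0.71).

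Basement membrane genes fell in 12 of 28 members and rose in 4, with a median change of -0.98. Egfl6, a secreted matrix protein, stood at 576, 727, 1176 and 151 at P5 and at 2.73, 7.41, 11.8 and 7.38 at P28 (-6.10 ± 0.71, limma adjusted p = 1.85e-05). Nid1, nidogen, which links laminin to type IV collagen, fell from 2341, 2300.2, 3479 and 1951 to 757, 634, 416 and 473 (-2.15 ± 0.22), and the laminin chains Lama3 and Lama4 changed by -2.91 ± 0.37 and -1.23 ± 0.18. Fras1, a surface protein of embryonic basement membranes, fell from 758, 1182, 2267 and 2299.9 to 314, 455, 147 and 296 (-2.38 ± 0.54). In contrast, Col15a1, a collagen of the outer basement membrane zone, rose from 6519, 8664, 6662 and 8872 to 25896, 20507, 44398 and 21706 (1.81 ± 0.24), and Lamb3, a laminin chain that pairs with Lama3, rose by 2.41 ± 0.40. All of these held against replicate 4. The median change of the list from replicate 4 was -0.24, and endothelial markers, whose cells lie on a basement membrane, summed to 1663 to 5740 at P5 and 2375 to 3704 at P28. Where P5 replicate 4 was left out, 3 of the 14 endothelial markers fell, and 1 fell without P28 replicate 2. The part of blood vessels in the list was not tested.

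Cell-surface receptors for matrix changed in both directions. Of 34 integrins and mechanosensing genes 12 rose and 5 fell, with 7 rises where each library was brought to the same total and 3 falls without P28 replicate 3 or 4 or P5 replicate 1, 2 or 3. Itga5, the fibronectin receptor chain, stood at 1863, 2010.1, 2424 and 1842 at P5 and at 5065, 3699, 6014 and 3852 at P28 (1.17 ± 0.18), and Itgb3, a vitronectin receptor chain also abundant in osteoclasts, at 156, 113, 180.5 and 56.0 and 753, 569, 487 and 469 (2.27 ± 0.55). These were the 2 members that held against replicate 4. Itga8, an integrin chain of mesenchyme, fell from 80.4, 67.1, 137 and 56.8 to 29.1, 45.2, 15.8 and 20.5 (-1.62 ± 0.55, limma adjusted p = 0.0391), a call that ended without 6 of the 8 libraries when each was left out in turn. The mechanosensitive channel Piezo1 rose by 0.57 ± 0.15, from 2879.8 to 4166 at P5 to 4644 to 6947 at P28, with 24.6% of its exonic bases shared with another gene.

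Hox genes, which record position along the body axis, changed in both directions: 6 of 23 rose and 6 fell. The falls included 3 members of the Hoxd cluster, Hoxd13 from 52.6, 47.8, 47.2 and 109 to 14.5, 20.2, 7.89 and 14.8 (-2.06 ± 0.36, limma adjusted p = 0.000647), Hoxd11 from 83.3, 149, 253 and 129.7 to 37.2, 32.4, 30.6 and 43.5 (-1.97 ± 0.34, limma adjusted p = 0.000512) and Hoxd10 with a change of -1.39 ± 0.31. Hoxd13 and Hoxd11 held against replicate 4. In the same cluster Hoxd9 rose from 58.4, 83.0, 118 and 136 to 233, 274, 315 and 203 (1.42 ± 0.26, limma adjusted p = 0.000992) and Hoxd8 by 0.71 ± 0.20, and neither held. The tail gene Hoxa13 rose from 207, 166, 70.8 and 209 to 376, 313, 471 and 304 (1.26 ± 0.29), the opposite direction to Hoxd13. Neither Hoxa13 nor Hoxd10 held.

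Of 24 BMP antagonists and feedback inhibitors 8 rose and 6 fell, with a median change of 0.09. Chrdl2, a chordin-like antagonist of cartilage, stood at 218, 204, 140.2 and 288 at P5 and at 3068, 2275, 2923 and 3176 at P28 (3.78 ± 0.20, limma adjusted p = 5.46e-09), and Nbl1 rose by 1.07 ± 0.24. Grem1, Sost, Chrdl2 and Nbl1 were the 4 that held against replicate 4, and limma called 0 of the 6 falls against it, with 1 at an unadjusted p under 0.05. In the FGF pathway 3 of 25 rose and 7 fell, beside 15% higher and 12.8% lower over all genes tested. Fgfr4, a receptor of growing muscle and mesenchyme, fell from 108, 91.0, 108 and 118 to 8.18, 10.8, 9.86 and 20.5 (-3.08 ± 0.33, limma adjusted p = 9.09e-06) and Fgf18, a ligand of skeletal growth, from 61.4, 71.7, 91.6 and 45.8 to 12.7, 22.2, 16.8 and 9.02 (-2.11 ± 0.45, limma adjusted p = 0.00271). The transcription factor Etv5, a common FGF target, rose from 342, 326, 485 and 633 to 1069, 1453, 1885 and 813 (1.53 ± 0.27), and Fgf7 rose by 1.75 ± 0.38. Fgf18 and Etv5 did not hold, with changes from replicate 4 of -1.60 and 0.97. Spry1, Spry2 and Spry4 of the same list fell, the opposite direction to Etv5, and did not hold either. Without each library in turn, the change of Spry2 lay between -1.32 and -1.07 and its call was kept in all 8 fits. The call of Spry1 was kept in 3 of the 8 fits and that of Spry4 in 2. Without P5 replicate 4 the number of rises in the pathway was 5.

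Guidance molecules of axons, which also act between connective tissue cells, rose in 8 of 38 members and fell in 10, with 5 rises without P28 replicate 1, P28 replicate 3 or P5 replicate 4. Ephb2, an ephrin receptor, fell from 390.1, 446, 732 and 428 to 96.3, 133, 62.1 and 97.6 (-2.35 ± 0.25), and Sema5b, a semaphorin, from 70.1, 50.1, 144 and 43.2 to 7.27, 5.39, 7.89 and 2.46 (-3.45 ± 0.48, limma adjusted p = 8.69e-05). Ntn4, a netrin that binds laminin, rose from 200.2, 179.7, 124 and 440.0 to 1266, 990.1, 1263 and 958 (2.39 ± 0.27, limma adjusted p = 1.52e-05). All 3 held against replicate 4.

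Genes of osmotic response rose in 9 of 19 members and did not pass in 10, and 1 fell without P28 replicate 1 or P5 replicate 4. Slc6a6, the taurine transporter, stood at 1622, 1235, 1365 and 1799 at P5 and at 6973, 7442, 7313 and 5772 at P28 (2.199 ± 0.18, limma adjusted p = 7.92e-07), and Slc6a12, the betaine transporter, at 49.7, 21.6, 37.5 and 62.7 and 503, 257, 301 and 338 (3.05 ± 0.28, limma adjusted p = 1.9e-06). Both import organic osmolytes and both held against replicate 4. Lrrc8b and Lrrc8d, subunits of the volume-regulated anion channel, rose by 1.12 ± 0.20 and 1.11 ± 0.17, and Lrrc8d did not hold. The list's regulator Nfat5 did not pass (0.42 ± 0.20, limma adjusted p = 0.141).

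The antioxidant and detoxification list held secreted and intracellular enzymes that rose. Sod3, the extracellular superoxide dismutase, stood at 169, 238, 159.7 and 276 at P5 and at 3432, 2944, 4130.3 and 2843 at P28 (4.00 ± 0.23, limma adjusted p = 1.43e-08), and Gpx3, the secreted glutathione peroxidase, rose from 1001, 596, 572 and 913 to 5316, 3130.2, 3139 and 2778 (2.21 ± 0.29). The cytosolic Gpx1 rose by 1.74 ± 0.23 and Aldh3a1, an intracellular aldehyde dehydrogenase, by 2.34 ± 0.36, and these 4 held against replicate 4. The list gave 15 rises among 37 genes, 9 without P28 replicate 1 or P5 replicate 3, and 8 with each library brought to the same total. Among glucocorticoid response genes 10 of 20 rose and 1 fell, and 0 rose with the Gm26917 share as a covariate. Klf9, a transcription factor induced by glucocorticoids and by the clock, rose from 365, 350.4, 323 and 516 to 1198, 1401, 2409 and 1119.6 (1.93 ± 0.30, limma adjusted p = 0.000222) but did not hold (limma adjusted p = 0.121 against replicate 4). Cdkn1a, the cell-cycle inhibitor p21, rose from 386, 348, 425 and 298 to 910.3, 946, 959.8 and 706 (1.27 ± 0.17). Fkbp5, a widely used glucocorticoid target, had overlapping values of 142 to 275 at P5 and 116 to 159 at P28 and did not pass (-0.51 ± 0.22, limma adjusted p = 0.0866).

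In the prostaglandin and purine list 12 of 29 genes rose, enzymes among them, and 1, Ptgfr, fell, which did not hold. Enpp2, autotaxin, which makes lysophosphatidic acid, stood at 567, 571, 390.1 and 893 at P5 and at 6392, 3115, 4143 and 3430.1 at P28 (2.82 ± 0.27, limma adjusted p = 2.82e-06). Ank, which exports ATP and pyrophosphate and whose loss mineralises joints, rose from 1499, 1817, 1983 and 1871 to 8475, 7651, 9597 and 6312 (2.15 ± 0.16, limma adjusted p = 3.4e-07), and Ptgis, prostacyclin synthase, from 672, 998, 678 and 955 to 3265, 3510.3, 4962 and 2629 (2.11 ± 0.20). These 3 held against replicate 4. Of 30 genes of lipid uptake and storage 6 rose, 4 of them against replicate 4, and 3 fell, none of which held, with a median change of -0.015. The falls numbered 1 without P28 replicate 3 and 0 without P5 replicate 3. Over all genes tested 15% were higher and 12.8% lower, near the shares of this list. Dgat2, which makes triglyceride, rose from 54.1, 45.5, 31.9 and 69.5 to 314, 292, 616 and 341 (2.92 ± 0.27, limma adjusted p = 1.99e-06), and the lipoprotein gene Apoe from 472, 582, 848 and 639 to 2533, 3048, 3187 and 1996 (2.09 ± 0.23, limma adjusted p = 1.16e-05). The falls included Acacb, an acetyl-CoA carboxylase (-1.08 ± 0.31), and Fabp5, a fatty acid-binding protein (-1.13 ± 0.39).

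**Figure D5:**
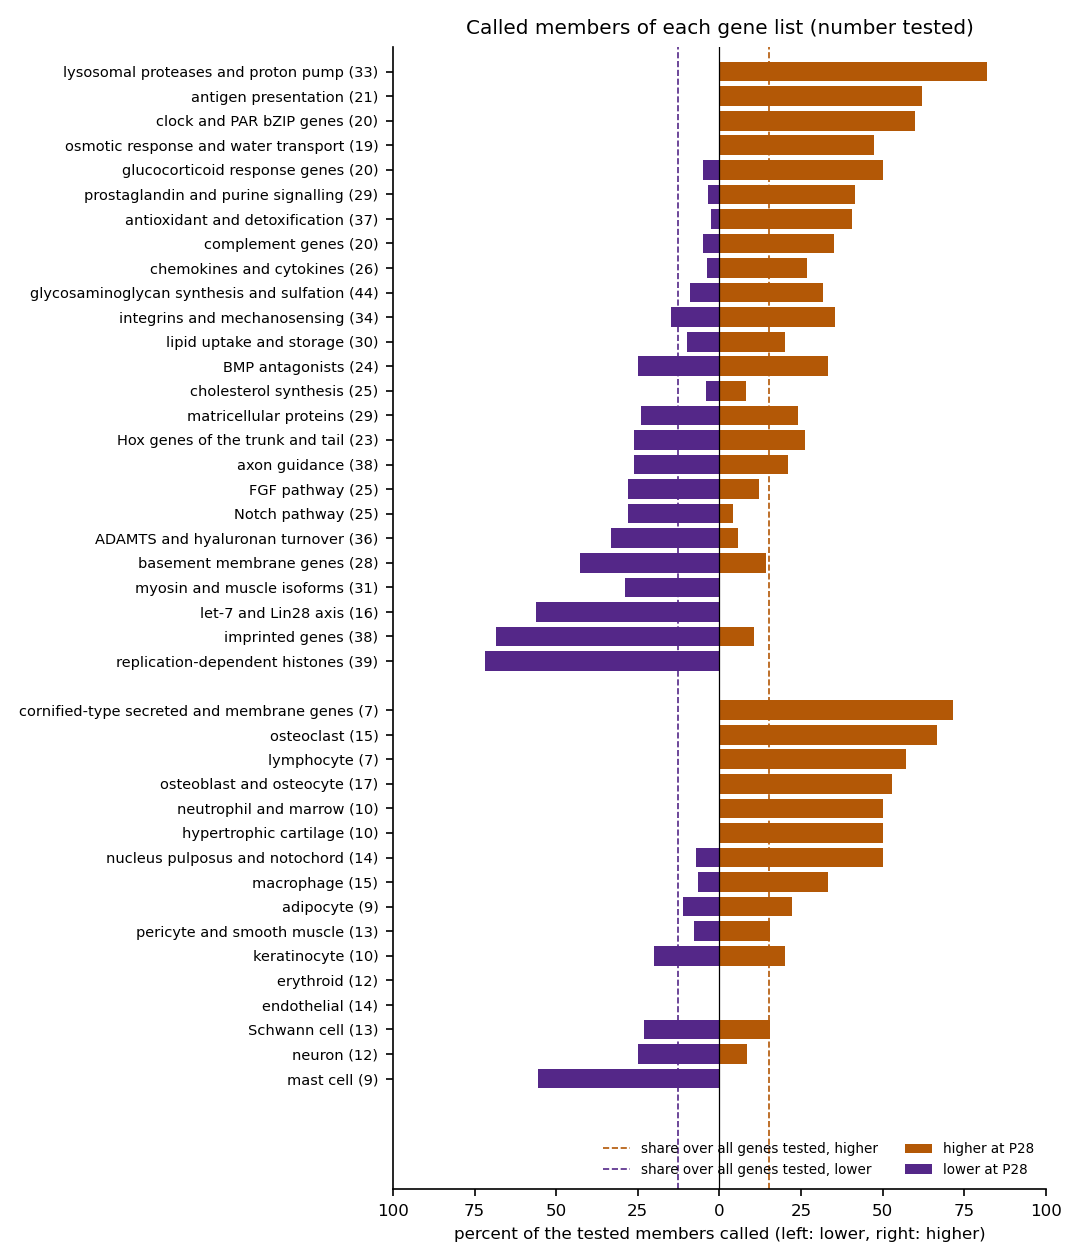
Percent of the tested members of each gene list called lower (purple, left) or higher (orange, right) at P28, with pathway lists above and cell type markers below and the number tested in parentheses; the dashed lines are the shares over all genes tested, 12.8% lower and 15% higher. Lysosomal genes lie farthest to the right (27 of 33) and replication-dependent histones farthest to the left (28 of 39) among the pathway lists.

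Markers of other cell types also moved. Mast cell markers gave 5 falls among 9 tested, with summed levels of 420 to 1373 at P5 and 210 to 299 at P28. The chymase Mcpt4 stood at 225, 205, 107 and 60.2 at P5 and at 1.82, 0.674, 1.97 and 4.92 at P28 (-5.45 ± 0.69, limma adjusted p = 3.84e-05), while Kit, Hdc and Gata2, which other cells also express, did not pass. The granule carboxypeptidase Cpa3 fell from 162, 139, 111 and 33.9 to 0, 0.674, 0.986 and 3.28 (-5.64 ± 0.88, limma adjusted p = 0.000247), and replicate 4 was the lowest P5 library in both. Muscle genes spanned 6582 to 212044 in summed level at P5 and 1137 to 83593 at P28; 9 of 31 fell, and 14 fell without P28 replicate 4. Against replicate 4 limma called 0 of the 9, with 1 at an unadjusted p under 0.05. The embryonic and perinatal myosins Myh3 and Myh8 were at 622, 1602, 5368 and 171 and 779, 1709.8, 10063 and 277 at P5 and at 42.7, 1.35, 0 and 46.8 and 40.9, 2.02, 0 and 105 at P28, with P5 replicate 3 the highest library for both. Their changes were -6.87 ± 1.40 and -7.01 ± 1.497 (limma adjusted p = 0.00195 and 0.00268).

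Epidermal genes fell into distinct sets. Of 20 cornified-type genes listed only 7 had values and were tested, and of 20 keratinocyte markers listed only 10. The cornified-type secreted and membrane proteins rose in 5 of 7 members, all 5 against replicate 4, with summed levels of 91.6 to 208 at P5 and 3940 to 8859 at P28. Sbsn, suprabasin, stood at 68.7, 76.2, 49.98 and 94.9 at P5 and at 3489.5, 1771, 3667 and 2034 at P28 (5.19 ± 0.25, limma adjusted p = 2.9e-09), and Slurp1, a secreted Ly6 protein, at 21.9, 15.9, 2.78 and 25.4 and 2107, 1601, 3318 and 792 (6.94 ± 0.50, limma adjusted p = 2.17e-07). Of 10 keratinocyte structural markers tested 2 rose and 2 fell, with a median change of 0.57 and summed levels of 732 to 1132 at P5 and 1355.5 to 1899 at P28, which do not overlap. The rises numbered 1 without P28 replicate 2 or P5 replicate 3, and neither fall held against replicate 4. Krt5, the basal keratin, was at 109.6, 73.9, 23.6 and 0.848 at P5 and had no read in any P28 library. Of 13 Schwann cell markers 2 were higher and 3 lower, beside 15% higher and 12.8% lower over all genes tested. Their summed levels overlapped, at 3452 to 5818 at P5 and 4369 to 6531 at P28. There was 1 rise without P28 replicate 1 or 3 or P5 replicate 1, 2 or 3, and 1 fall without P5 replicate 2. Sox10, a transcription factor of Schwann cells, fell from 64.3, 58.0, 63.9 and 8.48 to 4.54, 4.72, 0 and 4.10 (-3.46 ± 0.77, limma adjusted p = 0.00371), with replicate 4 close to P28, and Pmp22, a myelin protein, rose by 0.67 ± 0.23. Neither held.

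The genes that separated replicate 4 from the rest of P5 were chosen as those called over all P5 libraries in which replicate 4 lay near P28, so their values are a description. Scx, the tendon and annulus transcription factor scleraxis, stood at 662, 845, 614 and 8267 at P5 and at 2792, 9036, 6748 and 6147 at P28. Its change was 2.13 ± 0.62 over all P5 libraries and -0.54 from replicate 4. Bop1, a ribosome biogenesis gene in whose locus Scx lies, showed the same pattern, with 663, 488, 473 and 17618 at P5 and 4696, 21193, 9422 and 11918 at P28. Frzb, a secreted Wnt antagonist of cartilage, stood at 1172, 794, 394 and 6389 and 6504, 6137, 4543 and 4934, and Acan, aggrecan, at 47899, 36452, 28960.3 and 128614 and 129290.1, 108099.6, 132326 and 103651. Replicate 4 was thus within the P28 range for these 4 genes, and the other 3 P5 libraries were all below it. Sfrp5, Vit, Cpe and Pla2g5 completed the 8 higher genes of this kind. All 8 calls ended without P5 replicate 2 and also without P5 replicate 3, and the highest adjusted p of each gene over the fits without 1 library lay between 0.0533 and 0.159. Against replicate 4 the change was -0.78 for Bop1, -0.44 for Sfrp5, -0.22 for Frzb, -0.14 for Cpe, -0.13 for Acan and -0.08 for Vit, the opposite sign to their calls, and 0.33 for Pla2g5.

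On the lower side, Fmo1, a flavin monooxygenase, stood at 381, 281, 475 and 39.8 at P5 and at 43.6, 57.3, 27.6 and 35.3 at P28, and Gatm, the first enzyme of creatine synthesis, at 164, 205, 261 and 22.0 and 35.4, 41.1, 9.86 and 40.2. Sncaip, which encodes a synuclein-binding protein, stood at 316, 245, 547 and 52.6 and 57.2, 47.2, 27.6 and 39.4, and the sodium channel subunit Scn3b at 81.8, 189, 289 and 18.6 and 4.54, 4.72, 5.92 and 18.9. In each of them replicate 4 was lower than the other P5 libraries and lay within the P28 range. The call of Fmo1 ended without P5 replicate 1 or P5 replicate 3 (highest adjusted p 0.0548), and that of Gatm without P28 replicate 1, P28 replicate 3 or P5 replicate 1, 2 or 3 (highest adjusted p 0.138). Gatm had the opposite sign against replicate 4, 0.32. Atp1b4, Tceal7, Alpk3 and Pkia, of which Atp1b4 and Alpk3 are best known in muscle, made up the rest of the 8. When each of the 8 libraries was left out in turn, the calls of Atp1b4 and Pkia ended in 5 fits each and that of Alpk3 in 6. Gm26917 itself stood at 1935826, 1289807, 1868277 and 735488 at P5 and at 436517, 356907, 401957 and 365730.5 at P28, and its change of -1.81 ± 0.66 did not pass (limma adjusted p = 0.0521).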

How the data were processed

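The values are counts of reads per gene divided by library size factors: the deposited table holds a normalised signal, not logged, for 17724 genes in 16 libraries. Per the submitters' processing notes the tools were bcl2fastq 2.20, Trimmomatic 0.36, STAR 2.5.2b, featureCounts (Subread 1.5.2) and DESeq2 with GRCm38; the strand setting and any filter on genes are not given in the sources used here. Within a library, 100% of the deposited values were whole multiples of the value of 1 read (tolerance 0.001), so the reads behind each value were recovered, and the values of 1 read were 0.99939 to 1.0005 times those of DESeq2 1.42.0. Depth is therefore known, and at low counts it limits precision.

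Genes averaging 10 or more over the 16 libraries were kept (17577 of 17724, with 147 removed). limma 3.58.1 (R 4.3.3), with an intensity trend, was fitted to log2(value + 1) over all 16 libraries with 1 mean per age. The same fit over the 11 libraries under 6% Gm26917 tested P28 against P5 replicate 4 alone. Alternatives were edgeR 4.0.16 quasi-likelihood and DESeq2 on the recovered reads, the 8 libraries alone, other scalings, pseudocounts and filters, the Gm26917 share as a covariate, and each library left out in turn. On simulated counts for 17577 genes, the P28 against P5 test recovered 39% of genes changed 2-fold and 75% of those changed 4-fold, with 5 false calls. The simulation drew all libraries from a common profile in which few genes changed, and scaled them by total reads. No P5 library was set apart in it, so its false calls do not measure those in the data, where P5 replicate 4 stood apart. Gene positions and shared exonic bases came from GENCODE release 21 for mouse (17677 identifiers matched, 47 did not), and promoter sequences from RefSeq GRCm38.p6.

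The libraries, the gene lists and the genes named were chosen with earlier results of these data known. Genes were named by rule: the 15 largest changes in each direction among called genes averaging 100 or more at their higher age, with no overlap between ages, up to 3 called members per list, all clock genes but 1, Gm26917, and 8 genes per direction in which P5 replicate 4 lay nearest to P28. Lists were described by counts and medians, with no test of the list. A few members of the lists are counted but not reported singly here. The labels give no batch.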

Additional observations from a re-analysis of the deposited data

Results flagged for a closer look

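In 18 of 328 groups of 4 libraries examined, 1 library stood apart from the other 3, measured as its gap to the nearest library divided by the group's range and judged against Dixon's critical value; chance flags about 1 in 20 groups. P5 replicate 4 accounted for 11 of the 18. The groups include genes that were named because replicate 4 lay near P28, Bop1, Cpe and Scx among them. Flags of such genes follow from that choice, so the tally is a description. It was the high library for Cst3 (0.945), Bop1 (0.907), Cpe (0.905), Scx (0.877), Hoxd13 (0.871) and Ebp (0.856), and the low library for Prx (0.959), Sox10 (0.948), Mrc1 (0.914), Nefh (0.876) and Rbfox3 (0.870). P5 replicate 1 was low for Per3 (0.950).

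At P28, replicate 1 was high for Atp6v0d2 (0.946) and F13a1 (0.858), replicate 2 was high for Jag2 (0.909), replicate 3 was low for Sox10 (0.935) and Gatm (0.893), and replicate 4 was low for Dmkn (0.915).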

How the results depend on the processing

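The counts of higher and lower genes (2641 and 2256) were 2530 and 2337 with edgeR, 2942 and 2696 with DESeq2, and 2601 and 2445 in the 8 libraries alone. They changed by over 1.5 times in the libraries under 6% Gm26917 (927 higher, 445 lower), with the Gm26917 share as a covariate (395 and 260) and, for higher genes, with the same total per library (1559). Leaving out 1 library gave 1972 to 2718 higher and 1618 to 2409 lower genes. The 1119 genes called in both fits became 739 to 997 without 1 P28 library. Averaging P21 replicates 3 and 4, chosen after seeing the data, gave 2506 and 2156. The fit in the libraries under 6% Gm26917 has fewer samples; the other causes were not tested.

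Of 148 called named genes, 115 kept the call without each of the 8 libraries in turn. Signs reversed in the libraries under 6% Gm26917 for Bop1 (-0.78), Scx (-0.54), Sfrp5 (-0.44), Frzb (-0.22), Cpe (-0.14), Acan (-0.13), Vit (-0.0848) and Gatm (0.32), and with the covariate for Pla2g5 (-0.25), Cpe (-0.18), Hsd17b7 (-0.0165), Tceal7 (0.0427) and Gatm (0.0740).

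With the replicate number as a block 2614 genes were higher, 2268 lower and 511 called in both fits. The deviations of same-numbered P5 and P28 libraries correlated at 0.1274, -0.0025, -0.342 and -0.2644. The libraries did not all correlate best with their own number. With 4 libraries per age these values cannot show whether same-numbered libraries shared a batch, and the labels give no batch.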
